A study of Mus musculus with 6 samples.

Results

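The genes Flt1, Cldn5, Pecam1, Ly6c1, Slco1a4, Mecom, Itm2a, Adgrl4 and Nostrin, 9 markers of the endothelial cells of brain blood vessels, were followed through every readout of a study of nuclei from formalin-fixed, paraffin-embedded (FFPE) mouse brain. The 9 genes were chosen by name among 25696 mouse genes, with earlier results of these data known. All 9 were present in each of the 6 tables of counts. The deposited series comprises 6 samples, labelled as cortex of C57BL/6J mice aged 8 to 12 weeks, with no genetic change or drug treatment. FFPE scrolls of 50 µm were freed of paraffin in 3 ways, with mineral oil and heat, with xylene and heat, or with xylene at room temperature, and nuclei were then released. Nuclei were sequenced in bulk wells by SCRB-seq, a method that counts the 3' ends of transcripts, and in bulk wells and singly by SMART-Seq2, which reads whole transcripts. Other FFPE nuclei were encapsulated in droplets. Nuclei from frozen brain served as the comparison group for the wells and the plates, and they are named in the annotation of the tables rather than in the sample labels. The labels tie no well or nucleus to an animal, so that p-values measure only the spread between wells, which may be technical.

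Endothelial cells line the vessels of the brain and form the blood-brain barrier, in which tight junctions seal the cells to each other and transporters decide what crosses. Flt1 is a receptor for vascular endothelial growth factor, Cldn5 is the main claudin of the barrier's tight junctions, and Pecam1 is an adhesion molecule at endothelial cell contacts. Slco1a4 is an organic anion transporter of the barrier, Adgrl4 an adhesion G protein-coupled receptor, Mecom a zinc finger transcription factor, and Nostrin an adaptor that binds endothelial nitric oxide synthase. Ly6c1 and Itm2a encode membrane proteins found on endothelial cells and on cells of the blood. Endothelial cells are a small share of brain cells, and each carries little RNA compared with a neuron.

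The genes differ widely in structure, which bears on what a nucleus can contribute, since nuclear RNA is rich in unspliced transcripts. In the GRCm38 build with GENCODE M21 annotation, Cldn5 has a single exon of 1416 bases (chr16:18776847-18778262, plus strand) and no intron. Ly6c1 spans 4813 bases (chr15:75044018-75048830, minus strand) and Itm2a 6278 bases (chrX:107397099-107403376, minus strand), of which 65.2% and 72.2% are intronic. The remaining 6 genes are long. Mecom covers 596713 bases (chr3:29951296-30548008, minus strand), Flt1 164408 bases (chr5:147561604-147726011, minus strand) and Adgrl4 107200 bases (chr3:151437887-151545086, plus strand). Pecam1 covers 96412 bases (chr11:106654217-106750628, minus strand), Nostrin 53531 bases (chr2:69135800-69189330, plus strand) and Slco1a4 50760 bases (chr6:141805440-141856199, minus strand). Introns make up 87.4% of Slco1a4 and 97.9% of Mecom, with the other long genes in between. Ly6c1 has a near-identical neighbour, Ly6c2, and Slco1a4 lies in a cluster of related transporters, so that their counts may include or lose reads of these copies.

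Because these genes rise together in one class of nuclei, their promoters were searched for AGGAAG, a core to which ETS factors, the family that sets the endothelial programme, are known to bind. RefSeq entries with build GRCm38.p6 gave the 250 bases upstream of the start site for 8 of the 9 genes. The motif or its reverse complement CTTCCT was present upstream of 6 of these 8 (Adgrl4, Flt1, Itm2a, Ly6c1, Nostrin and Slco1a4) and in 29.5% of 32851 mouse promoters of the same length. The 8 genes have 10 promoter entries, since Ly6c1 and Mecom have 2 each, and counted by entry, as the background is, the motif was in 6 of 10: 1 of the Ly6c1 entries holds it and the other does not. The promoters of 4 genes are printed to show the range found, from 2 matches in Flt1 to 0 in Cldn5, 5' to 3' on the gene's strand with matches in capitals: Flt1 (chr5:147726012-147726261, minus strand), Slco1a4 (chr6:141856221-141856470, minus strand), Nostrin (chr2:69135550-69135799, plus strand) and Cldn5 (chr16:18776597-18776846, plus strand). A match is a description of the sequence and shows no binding.
Flt1: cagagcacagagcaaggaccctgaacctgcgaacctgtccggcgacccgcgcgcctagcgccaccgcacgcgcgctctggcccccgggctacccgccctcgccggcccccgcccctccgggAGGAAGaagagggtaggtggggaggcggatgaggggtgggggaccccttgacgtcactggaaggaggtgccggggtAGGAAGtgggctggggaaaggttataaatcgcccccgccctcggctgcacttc
Slco1a4: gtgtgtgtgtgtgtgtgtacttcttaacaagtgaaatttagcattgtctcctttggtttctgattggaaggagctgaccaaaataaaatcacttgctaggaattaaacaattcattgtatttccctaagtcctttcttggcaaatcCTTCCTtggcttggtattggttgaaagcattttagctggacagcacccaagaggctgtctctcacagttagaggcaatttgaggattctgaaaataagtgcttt
Nostrin: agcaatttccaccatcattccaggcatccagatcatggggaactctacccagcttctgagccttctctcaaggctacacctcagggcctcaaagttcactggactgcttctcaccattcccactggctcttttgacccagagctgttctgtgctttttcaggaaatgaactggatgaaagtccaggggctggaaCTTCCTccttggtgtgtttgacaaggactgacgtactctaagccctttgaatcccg
Cldn5: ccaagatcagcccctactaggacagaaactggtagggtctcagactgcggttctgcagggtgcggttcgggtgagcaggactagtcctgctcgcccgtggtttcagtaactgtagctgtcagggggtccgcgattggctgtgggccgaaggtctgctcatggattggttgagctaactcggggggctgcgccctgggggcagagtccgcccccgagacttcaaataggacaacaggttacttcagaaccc

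In the whole series, SCRB-seq wells held 7512 to 167144 mouse counts, SMART-Seq2 bulk wells 270363 to 942966 counts and droplet nuclei 235 to 998 UMIs. Median counts per plate nucleus were 47887 for the FFPE nuclei of the table of the whole series, 180584 for those of a first FFPE batch and 255329 for the frozen nuclei. Although all samples are labelled cortex, markers of cerebellar granule neurons were present in the FFPE wells (a mean sum of 1309 CPM in SCRB-seq) and nearly absent from the frozen wells (9.67 CPM), so that these markers move with the FFPE and frozen groups. Their part in the differences below was not tested.

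The droplet nuclei showed most plainly which nuclei carried these transcripts. The authors' annotation names 12 classes among 7031 nuclei, and its Endothelial class held 174 nuclei, 2.47% of the nuclei and 2.17% of the UMIs. That class held 33.0% of the 557 UMIs of the 9 genes, and all 9 had their highest level there. For Cldn5, Pecam1, Ly6c1, Itm2a and Nostrin the interval overlapped that of the small Fibroblast class, so that the first rank could not be told at this depth for these 5. The summed level was 3251 CPM (a gene's counts scaled to the library total; exact Poisson 95% interval 2798 to 3756) in the Endothelial class, next 353 CPM (142 to 728) in the 47 Fibroblast nuclei, and lowest at 59.999 CPM (25.9 to 118) in the neuron class ExNeuron5. The intervals of the Endothelial class and of every other class were apart, whereas the classes next to each other in the order below it had overlapping intervals. All intervals here and below cover counting error only. The droplet data are 1 library with 7031 distinct barcodes, and the classes were drawn from these same counts, so that the levels describe the classes and are given without a test.

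**Figure D1:**
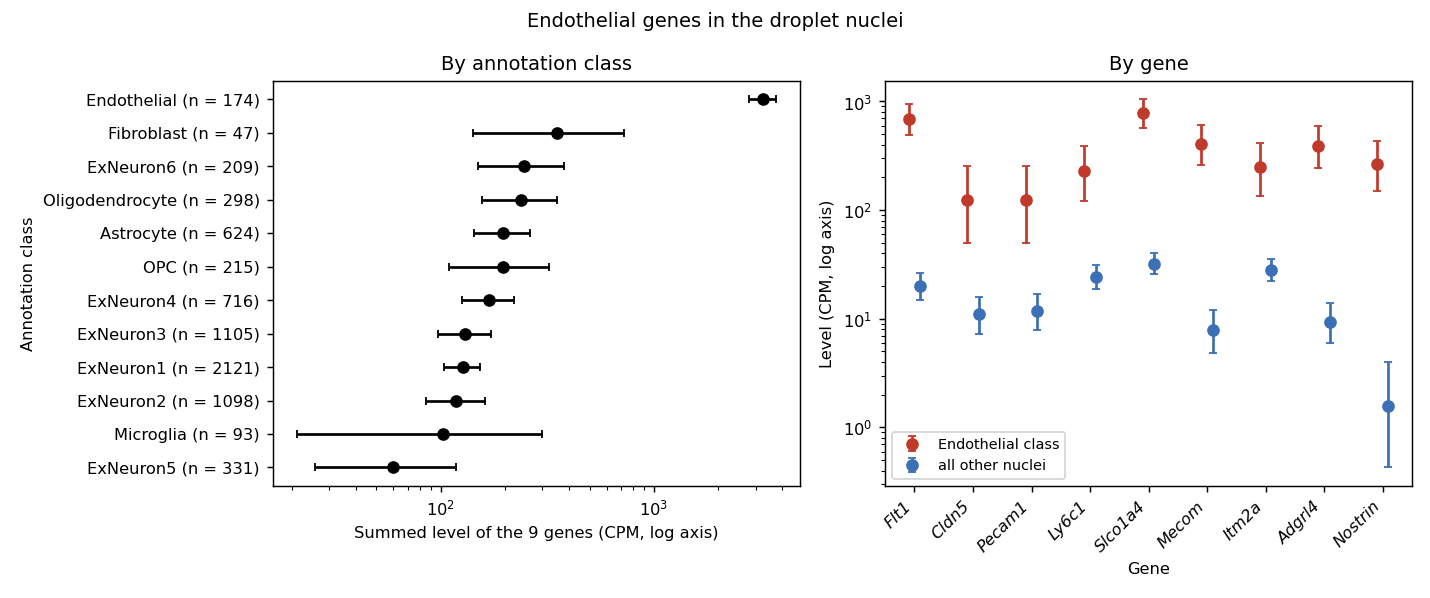
Left, summed level of the 9 endothelial genes (CPM, log axis) in each annotation class of the droplet nuclei. Right, level of each gene (CPM, log axis) in the Endothelial class (174 nuclei) and in all other nuclei (6857); points are pooled levels and bars exact Poisson 95% intervals. The Endothelial class stands apart at 3251 CPM, and Nostrin has the widest separation between the 2 groups of nuclei.

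Among the signalling receptors, Flt1 was read in 33 of the 174 Endothelial nuclei (19.0%), at 689 CPM (490 to 942), against 20.01 CPM in all other nuclei. The ratio was 34.4 (22.1 to 53.3), and the next class was ExNeuron6 with 5 UMIs. Adgrl4 was read in 21 Endothelial nuclei (12.1%), at 389 CPM against 9.42 CPM elsewhere. Both receptors were thus concentrated in the class, and neither left a UMI among the Fibroblast nuclei, which was a sample of only 47.

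The transporter Slco1a4 gave more UMIs in the class than any other of the 9 genes, 44 in 39 nuclei (22.4%), at 777 CPM (565 to 1044) against 32.2 CPM elsewhere. It also had the most UMIs outside the class, 82, among them 10 in Oligodendrocyte nuclei (91.9 CPM, 44.1 to 169). The transcription factor Mecom gave 23 UMIs in 17 Endothelial nuclei, at 406 CPM against 7.85 CPM, a ratio of 51.8 (27.2 to 99.4). Nostrin was the most restricted of the 9 by this measure, with 15 of its 19 UMIs in the class, at 265 CPM against 1.57 CPM and a ratio of 168.9 (53.8 to 699). Its interval overlapped those of Mecom and Adgrl4, so that the order of these 3 ratios could not be told at this depth. Nostrin had 0 UMIs in 7 of the 11 other classes.

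The junction and adhesion genes were sparse. Cldn5 and Pecam1 were each read in 7 of 174 Endothelial nuclei (4.02%), at 124 CPM (49.7 to 255), with ratios of 11.3 (4.15 to 26.4) and 10.5 (3.90 to 24.4) against all other nuclei. For Cldn5 the next class was Fibroblast, with 2 UMIs at 100.9 CPM (12.2 to 365), and for Pecam1 it was Oligodendrocyte, with 3 UMIs at 27.6 CPM (5.69 to 80.6). Ly6c1 was read in 13 Endothelial nuclei at 230 CPM against 24.3 CPM elsewhere, and Itm2a also in 13, at 247 CPM against 28.3 CPM. The ratios of these 2 membrane protein genes, 9.44 (4.76 to 17.4) and 8.76 (4.56 to 15.7), were the lowest of the 9. Their intervals overlapped those of Cldn5 and Pecam1, so that the lowest rank could not be told. Most of their UMIs, 62 of Ly6c1 and 72 of Itm2a, lay outside the class, as for each of the 9 but Mecom and Nostrin.

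Counting genes per nucleus separated the class further. At least 1 of the 9 genes was read in 97 of 174 Endothelial nuclei (55.7%) and in 355 of 6857 others (5.18%), and at least 2 in 39 (22.4%, exact binomial interval 16.5 to 29.3) and 16 (0.233%, 0.133 to 0.379). With each nucleus thinned to 250 UMIs, the shares with at least 2 genes were 18.1% (30 of 166) and 0.120% (8 of 6682). When a gene needed at least 2 UMIs to count, they were 2.30% (4 of 174) and 0%. Median depths were 301.5 and 326 UMIs, so the class was the shallower of the 2. Flt1 and Slco1a4 were the pair read together most often, in 14 Endothelial nuclei, where the product of their separate shares gives 7.40.

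The class was not free of other transcripts. Mural markers, genes of the pericytes and smooth muscle cells that wrap vessels, were read in 49 of the 174 nuclei (28.2%), at 1484 CPM summed, with 2 of 10 markers at 0. The Fibroblast class held them at 1464 CPM. Neuron markers were read in 128 Endothelial nuclei (73.6%), beside 75.8% of Oligodendrocyte and 79.97% of Astrocyte nuclei. Astrocyte markers were read in 85 (48.9%, beside 40.9% of Oligodendrocyte nuclei) and oligodendrocyte markers in 82 (47.1%, beside 50.2% of Astrocyte nuclei). Microglia markers were read in 18 and leptomeningeal markers in 7. Without the nuclei that held a mural UMI, at least 2 endothelial genes were read in 30 of 125 nuclei (24.0%), a share no lower than that of the whole class.

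Across the 9 genes, the share of a gene's UMIs that fell in the Endothelial class went from 16.3% for Itm2a and 17.3% for Ly6c1 to 53.5% for Mecom and 78.9% for Nostrin. The intronless Cldn5 stood at 20%, Pecam1 at 18.9%, Slco1a4 at 34.9%, Flt1 at 43.3% and Adgrl4 at 47.8%. Pearson's r between this share and the log10 of gene length was 0.59 and Spearman's rho 0.63 (n = 9 genes of 1 library, given as a description). The short genes Cldn5, Ly6c1 and Itm2a were all at 20% or below, together with the long gene Pecam1.

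**Figure D2:**
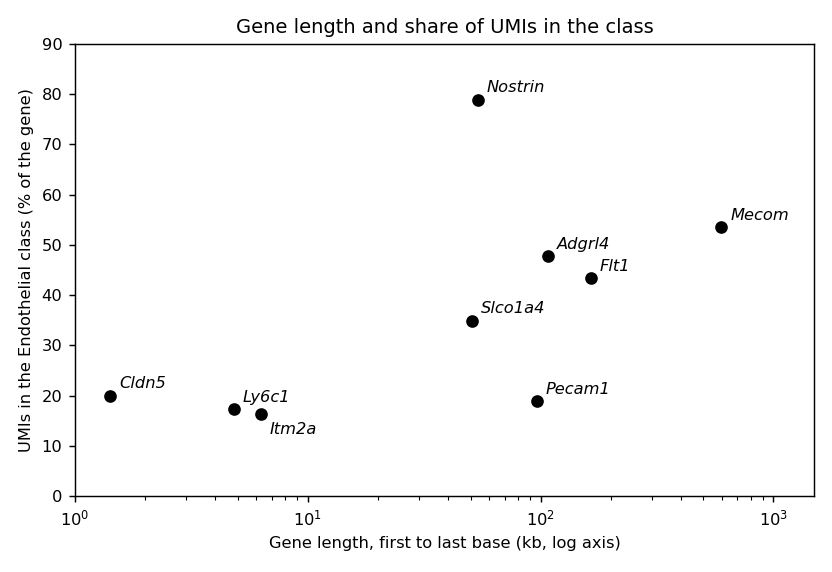
Share of each gene's droplet UMIs that fell in the Endothelial class (%), against gene length from first to last base (kb, log axis); each point is 1 of the 9 genes. The 3 shortest genes lie at 20% or lower, and Nostrin lies highest at 78.9%.

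Other genes of the same pathways were read from lists of barrier and vessel genes, without the 9 genes themselves. The lists were chosen with earlier results of these data known, so that their counts describe the class and are no independent support. In the droplet nuclei the background was that 6073 of 17141 genes with a UMI had more than the class's own 2.17% of their UMIs in the Endothelial class, with a median share of 1.25%. This background takes in sparse genes and was not matched to the lists for depth: 10296 of 19905 genes had 0 UMIs in the class. Above the 2.17% were 9 of 10 tight junction genes (median share 7.11%), 13 of 16 transport genes (9.90%) and 12 of 13 transcription factors (22.2%). The counts were 8 of 11 for genes of VEGF and angiopoietin signalling (4.396%), 10 of 13 for adhesion and surface genes (7.69%) and 3 of 3 for nitric oxide genes (11.1%). The junction scaffold Tjp1 had the most UMIs in the class, 36, at 636 CPM against 213 CPM elsewhere, and the efflux pump Abcg2 had 30, at 530.1 CPM against 27.5 CPM. Epas1, a hypoxia-inducible transcription factor, had 24 UMIs (424 CPM against 39.2 CPM), and the surface protein gene Ly6e had 22 (389 CPM against 169.9 CPM). The thyroid hormone transporter Slco1c1 (371 CPM against 26.7 CPM), the zinc transporter Slc39a10 (247 CPM against 107 CPM), the Wnt pathway factor Lef1 (229.7 CPM against 15.3 CPM) and the adhesion receptor Adgrf5 (212 CPM against 10.6 CPM) followed. Adgrf5 shared its 12 UMIs in the class with Abcb1a, Slc3a2, Ptprb and Eng, so that the last place was a tie.

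Among 7810 other genes with at least 50 UMIs, those whose level over the 12 classes was most like the summed level of the 9 were Igf1r (Pearson's r 0.884 on log2(CPM + 10)), Tesk1 (0.875), Gpcpd1 (0.870), Tmem87a (0.870) and Ltbp4 (0.869). Rgs5 (0.844), Bmpr2 (0.842) and Igfbp7 (0.840) came next. Of these 8, Igfbp7 and Rgs5 had the largest shares of their UMIs in the Endothelial class, 40.9% and 27.7%. Tesk1 and Tmem87a had only 5 of 64 and 7 of 131 UMIs there, so that their r rests on few UMIs. Rgs5 is a pericyte gene and was on the mural list.

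Single nuclei in plates were read far more deeply, and there, at each table's own depth, a larger share of frozen than of FFPE columns held each of the 9 genes. The FFPE table of the whole series held 143 columns of nuclei, the frozen nuclei filled 137 columns, and a first FFPE batch 98. Many columns were close to identical to others: at a Pearson's r of at least 0.85 over 21117 genes, where the median pair stood at 0.222, the 137 frozen columns came down to 76 distinct profiles, the 143 FFPE columns to 106 and the 98 of the first batch to 90. In addition, 134 of the 143 FFPE columns equal a second batch deposited separately, and 7 of the other 9 are deeper than any nucleus of that batch. Each group is therefore treated as 1 sample without a test, and shares are given with and without these columns.

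At least 3 of the 9 genes were read in 59 of 137 frozen nuclei (43.1%, exact binomial interval 34.6 to 51.8), in 20 of 143 FFPE nuclei (14.0%, 8.76 to 20.8) and in 4 of 98 nuclei of the first FFPE batch (4.08%, 1.12 to 10.1). Thinned to 10000 counts each, 18 of 127 frozen nuclei (14.2%, 8.62 to 21.5) and 9 of 135 FFPE nuclei (6.67%, 3.09 to 12.3) held 3 or more, and the intervals overlapped. With near-identical columns counted once, the shares were 38.2% and 16.04%, and without the columns deeper than the second batch the FFPE share was 10.3%. When a gene needed at least 5 counts, the frozen and FFPE shares were 26.3% (36 of 137) and 9.09% (13 of 143). The FFPE share also rested on 1 of 2 plates, with 15 of 74 nuclei (20.3%) on one and 5 of 69 (7.25%) on the other, whereas the 2 frozen plates stood at 40.6% and 45.6%. Most columns absent from the second batch lay on the former plate, so that the plate and these columns are not separate limits. The second batch alone stood at 8.96% (12 of 134). At equal depth the FFPE plates stood at 8.45% and 4.69% and the frozen plates at 14.1% and 14.3%. The first FFPE batch then stood at 3.33% (3 of 90, 0.693 to 9.43), with its plates at 4.55% and 2.94%. At this depth at least 1 gene was read in 42.5% of frozen nuclei (33.8 to 51.6) and 37.8% of FFPE nuclei (29.6 to 46.5). The first batch stood apart from both, at 14.4% (7.92 to 23.4).

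**Figure D3:**
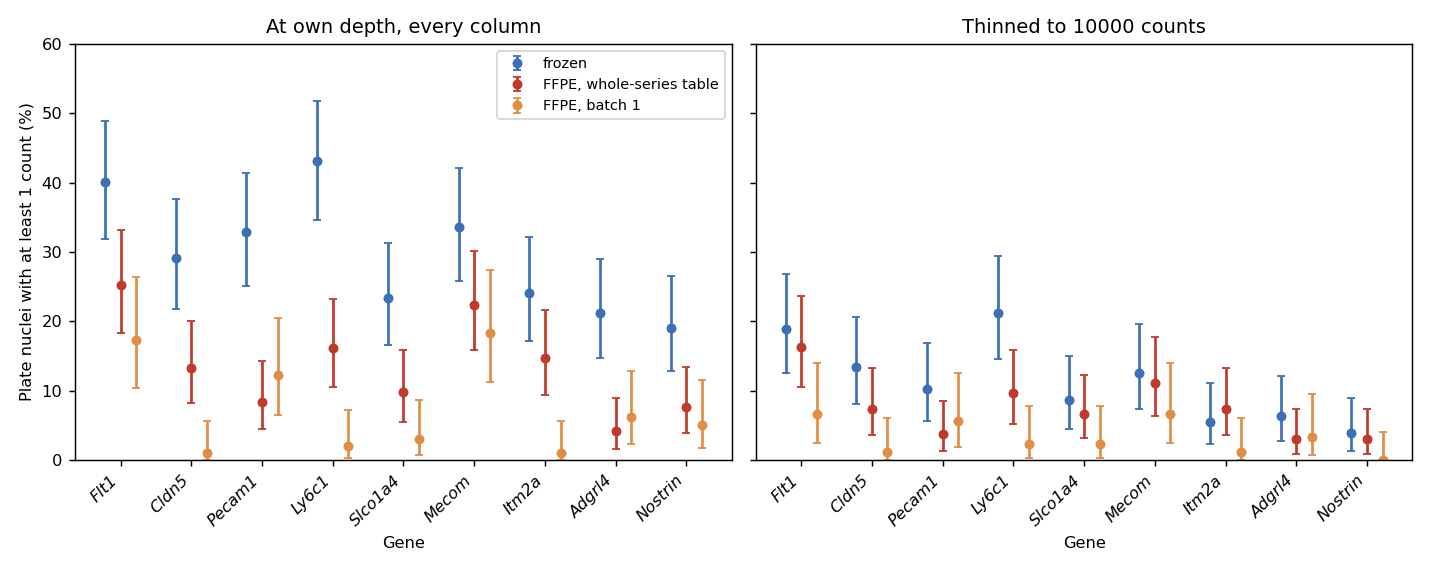
Share of plate nuclei (%) with at least 1 count of each endothelial gene, for frozen nuclei, FFPE nuclei of the table of the whole series and the first FFPE batch; points are shares and bars exact binomial 95% intervals. Left, every column at its own depth (137, 143 and 98 columns). Right, columns thinned to 10000 counts, where the intervals of the frozen nuclei and of the whole-series FFPE nuclei overlap for all 9 genes.

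By gene, Ly6c1 was read in 43.1% of frozen and 16.1% of FFPE nuclei, Pecam1 in 32.8% and 8.39%, and Adgrl4 in 21.2% and 4.20%. Cldn5 was read in 29.2% and 13.3% and Slco1a4 in 23.4% and 9.79%. The frozen columns include more near-copies and are several times deeper, so these shares describe the columns and not the 2 kinds of tissue. Flt1 was read in 40.1% and 25.2%, Mecom in 33.6% and 22.4%, and Itm2a in 24.1% and 14.7%. Nostrin was read in 19.0% and 7.69%. After thinning, the shares of Ly6c1 were 21.3% and 9.63%, of Mecom 12.6% and 11.1%, and of Itm2a 5.51% and 7.41%. The intervals of the frozen and the whole-series FFPE nuclei then overlapped for all 9 genes.

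Levels in the plates rested on few nuclei. In the frozen table, 2 columns from different plates held all 9 genes, at 21711 and 20559 CPM summed, and were near-identical to each other (r = 0.981). Together they carried 56.9% of all frozen counts of the 9 genes, with 84.1% of Adgrl4 and 78.0% of Mecom but only 3.43% of Pecam1. A second matched pair (r = 0.937) also held all 9 genes, at 4234 and 3995 CPM. In these 4 columns Cldn5 stood at 477 to 4330 CPM and Ly6c1 at 994 to 6275 CPM. Astrocyte markers summed to 1235 and 660 CPM, mural markers to 720 and 462 CPM and neuron markers to 167 and 141 CPM in the first pair. In the second pair neuron markers stood at 2381 and 3695 CPM and microglia markers at 670 and 1325 CPM. The part of other cell types in these columns was not tested.

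Pecam1 followed another pattern. A set of 4 near-identical frozen columns held it at 391 to 592 CPM, together with Slco1a4, Ly6c1 and Flt1, while Mecom, Itm2a, Adgrl4 and Nostrin were all at 0. These columns carried neuron markers at 4569 to 5569 CPM, astrocyte markers at 1312 to 2126 CPM and mural markers at 430 to 932 CPM. In the first pair above, by contrast, Pecam1 stood at only 57.0 and 102 CPM.

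In FFPE plates, 1 nucleus of the first batch held all 9 genes at 14616 CPM summed, with Flt1 at 6034, Ly6c1 at 2943, Adgrl4 at 2598 and Itm2a at 2285 CPM. Only 6 of the 9 reached 100 CPM in it, and Mecom (65.8 CPM), Nostrin (43.8 CPM) and Pecam1 (5.48 CPM) did not. It carried 37.5% of that batch's counts of the 9 genes, beside markers of neurons at 1326, of astrocytes at 1222 and of mural cells at 460 CPM. In the table of the whole series, 1 nucleus had Flt1 at 7482 and Nostrin at 1098 CPM with Pecam1, Slco1a4 and Adgrl4 at 0 and mural markers at 3469 CPM. A matched pair (r = 0.953) had Ly6c1 at 17549 and 14454 CPM and Itm2a at 4545 and 3391 CPM, with Cldn5, Pecam1, Adgrl4 and Nostrin at 0 and oligodendrocyte markers at 9794 and 7453 CPM. Of the FFPE counts, a single column held 89.3% of Pecam1, and 2 columns held 93.3% of Cldn5. The 1 FFPE column of the whole-series table that held all 9 genes had 4711732 counts and a summed level of 480 CPM, with markers of neurons at 3744 and of oligodendrocytes at 3422 CPM.

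The bulk wells address the paraffin removal itself. In SCRB-seq each method and each number of nuclei (10 or 100) was 1 library pool of 8 wells, so that method and pool cannot be told apart within a nuclei number. In wells of many nuclei, the number of endothelial nuclei, their RNA per nucleus and transcripts outside such nuclei cannot be told apart either. In the droplet data 67.0% of the UMIs of the 9 genes lay outside the Endothelial class, so well levels do not measure endothelial nuclei alone. Pecam1 and Flt1 were read nearly everywhere: Pecam1 in 45 of 48 FFPE and 16 of 16 frozen wells, and Flt1 in 44 and 14. Nostrin and Mecom were read in at least 1 well of all 8 pools, and the other 5 genes were missing from 2 to 4 whole pools. None of the 9 passed the filter on low counts (edgeR's filterByExpr), which kept 1478 genes for FFPE against frozen and 1080 for the methods, so that 0 of 9 were called where 58.0% of tested genes were called between FFPE and frozen wells (30.2% higher and 27.7% lower in FFPE; 317 higher and 686 lower by DESeq2, whose scaling moved the median log2 difference of all genes from 0.004 to -0.59). The background was 8.52% for mineral oil against heated xylene, 1.94% for heated against room-temperature xylene and 10.3% for mineral oil against room-temperature xylene.

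**Figure D4:**
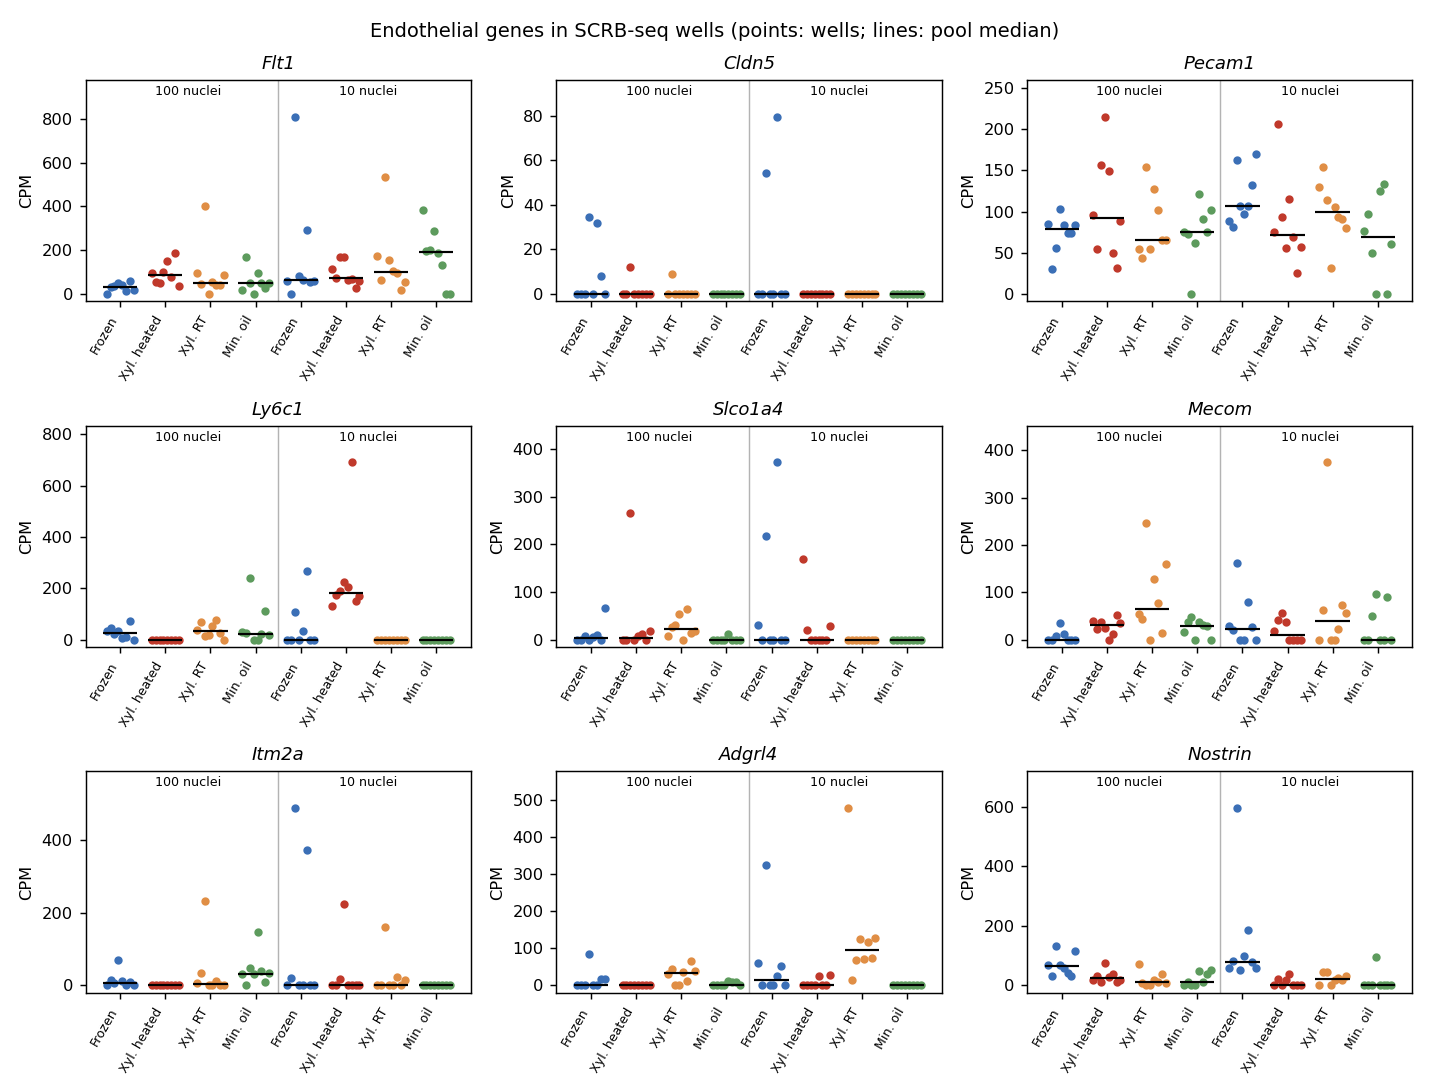
Level of each endothelial gene (CPM) in the 64 SCRB-seq wells, by method and nuclei per well; each point is 1 well and each line the median of 8 wells. Nostrin is above 0 in all 16 frozen wells, and Ly6c1 is above 0 in all 8 heated xylene wells of 10 nuclei but in none of the heated xylene wells of 100.

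Nostrin was the one of the 9, beside Pecam1, that every frozen well held. It was read in 16 of 16 frozen wells, with a lowest level of 30.6, a median of 68.2 and a highest of 595 CPM. Of 48 FFPE wells 29 held it, with a lowest of 0, a median of 12.1 and a highest of 95.8 CPM. The groups overlapped, but the pooled levels were apart, at 84.5 CPM (67.9 to 104) frozen and 23.5 CPM (18.3 to 29.7) FFPE, and each of the 6 FFPE pools (8.68 to 29.1 CPM) lay below both frozen pools (70.0 and 122 CPM). With no filter on low counts, edgeR's quasi-likelihood test gave a log2 difference of -2.01 (SE 0.43, Benjamini-Hochberg adjusted p = 9.15e-05).

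Cldn5 was nearly absent from the FFPE wells, with 2 counts in 48 wells (0.672 CPM, 0.0814 to 2.43) against 10 counts in 5 of 16 frozen wells (9.39 CPM, 4.501 to 17.3). It had 0 counts in 4 of the 6 FFPE pools, and most frozen wells were at 0 as well. The log2 difference with no filter was -2.28 (SE 0.42, edgeR adjusted p = 0.000314). Slco1a4 also passed in that fit, at -1.43 (SE 0.56, edgeR adjusted p = 0.0456), although its pooled levels, 18.5 CPM (13.9 to 24.1) FFPE and 24.4 CPM (15.9 to 35.8) frozen, overlapped. Thus 3 of 9 were called lower and 0 higher, against 17.3% of all 19006 genes called lower and 7.83% higher (25.2% in either direction), and the median log2 difference was -0.76 over the 9 and -0.04 over all genes. Mecom had the opposite sign, at 51.4 CPM (43.6 to 60.2) FFPE and 13.1 CPM (7.18 to 22.05) frozen, without passing (log2 difference 1.21, edgeR adjusted p = 0.113). These calls take wells of 1 pool as independent: with the wells of each pool summed, 8 of the 9 genes were tested, 0 were called, and 0.752% of 10235 genes were. In that fit 1 of the 8, Nostrin, had an unadjusted p under 0.05 (log2 difference -2.19, edgeR adjusted p = 0.272), as had 14.7% of all genes tested.

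The pooled levels of Pecam1 overlapped, at 92.4 CPM (81.8 to 104) FFPE and 82.6 CPM (66.2 to 102) frozen. The Flt1 levels were 103 CPM (91.6 to 115) and 60.1 CPM (46.3 to 76.7), but 1 frozen well reached 811 CPM and 1 FFPE well 534 CPM, and the unfiltered log2 difference of 0.45 did not pass (edgeR adjusted p = 0.505). Ly6c1 (50.1 and 32.8 CPM), Itm2a (25.2 and 31.0 CPM) and Adgrl4 (26.2 and 17.8 CPM) had overlapping pooled intervals.

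Between methods, several genes filled 1 pool and were missing from another. Ly6c1 gave 94 counts in the heated xylene wells of 10 nuclei, read in 8 of 8 with a lowest level of 131, a median of 181 and a highest of 691 CPM. In the heated xylene wells of 100 nuclei it gave 0 counts, as it did in the mineral oil and room-temperature xylene wells of 10 nuclei. The other 2 FFPE pools held it at medians of 22.3 CPM (mineral oil, 100 nuclei) and 32.6 CPM (room-temperature xylene, 100 nuclei). The 2 heated xylene pools thus did not overlap at all, while sharing their method. With no filter Ly6c1 was called higher in heated than in room-temperature xylene wells (log2 difference 2.32, SE 0.72, edgeR adjusted p = 0.0156), a value that rests on the pool of 10 nuclei.

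Adgrl4 was read in 8 of 8 room-temperature xylene wells of 10 nuclei, at a lowest of 15.4, a median of 94.7 and a highest of 478 CPM, and in 6 of 8 such wells of 100 nuclei, with a median of 33.7 CPM. The 4 other FFPE pools held 0 to 3 counts. Mecom was highest in the same 2 pools, at pooled levels of 101 and 87.0 CPM against 22.7 to 26.4 CPM in the other FFPE pools. However, 33 of the 49 Mecom counts of the wells of 10 nuclei came from 1 well, and without it that pool stood at 40.1 CPM. Its median, 39.7 CPM, was near those of the heated xylene (30.3 CPM) and mineral oil (29.3 CPM) wells of 100 nuclei. The fits were not run without that well. With no filter, heated minus room-temperature xylene gave log2 differences of -3.97 for Adgrl4 (SE 0.72, edgeR adjusted p = 3.50e-05) and -1.80 for Mecom (SE 0.61, edgeR adjusted p = 0.0302). Mineral oil minus room-temperature xylene gave -3.86 and -1.92 (edgeR adjusted p = 0.000152 and 0.0299). Those comparisons called 15.9% and 16.1% of all genes, and with wells summed per pool edgeR called 0 genes of the whole table (267 and 343 at an unadjusted p under 0.05).

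Itm2a and Slco1a4 were likewise tied to pools. Itm2a was read in 7 of 8 mineral oil wells of 100 nuclei and in 0 of 8 of 10 nuclei, and in 0 of 8 heated xylene wells of 100 nuclei. Slco1a4 was read in 7 of 8 room-temperature xylene wells of 100 nuclei and in 0 of 8 of 10 nuclei. In mineral oil wells it gave 1 count, and with no filter it was called lower there than with heated xylene (log2 difference -3.46, edgeR adjusted p = 0.00194, 18.8% of genes called). Of its 25 counts in the heated xylene wells of 100 nuclei, 22 came from 1 well, and with wells summed per pool edgeR called 0 genes of that comparison (416 at an unadjusted p under 0.05). In the frozen wells of 10 nuclei, 2 of 8 wells carried the set: 1 held 54 counts and the other 67 counts, with all 9 genes in each, at 2920 and 1780 CPM summed. The remaining 6 wells of that pool stood at 202 to 344 CPM, so the pool's mean of 798 ± 1006 CPM (SD, n = 8) rests on those 2. In the room-temperature xylene wells of 10 nuclei, 1 well held 114 counts of the 9 genes, with Flt1 at 47, Mecom at 33 and Itm2a at 14. Summed mural markers stood at 101 ± 101 CPM (SD, n = 48) FFPE and 104 ± 129 CPM (SD, n = 16) frozen, and leptomeningeal markers stood at 108 and 66.7 CPM.

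SMART-Seq2 bulk wells, 1 for each group and nuclei number, gave a more uneven picture. The summed level of the 9 genes was 8.57, 7.40 and 287 CPM in frozen wells of 100, 50 and 10 nuclei. In heated xylene wells it was 179, 38.3 and 5.30 CPM, in room-temperature xylene wells 381, 42.3 and 3453 CPM, and in mineral oil wells 136, 109 and 2136 CPM. The 2 highest FFPE wells and the highest frozen well were all wells of 10 nuclei, and the groups overlapped. Mural markers summed to 0 to 322 CPM in FFPE and 7.40 to 370 CPM in frozen wells.

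**Figure D5:**
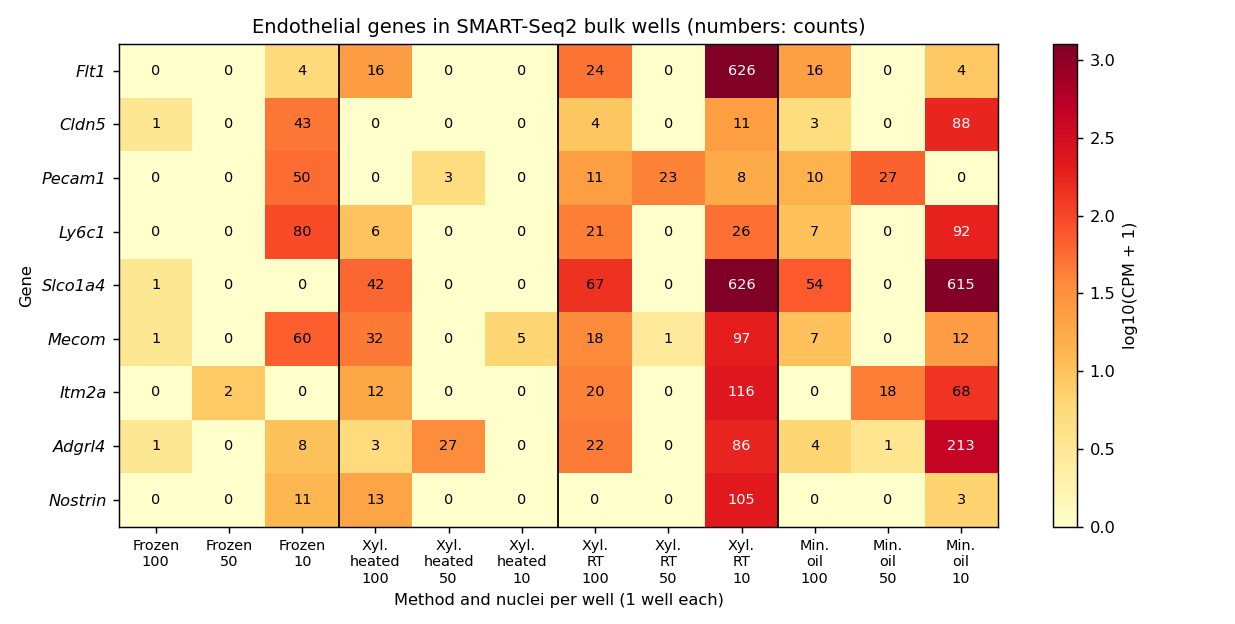
Counts of the 9 endothelial genes in the 12 SMART-Seq2 bulk wells (numbers), coloured by level as log10(CPM + 1); columns are the method and the nuclei per well, 1 well each. Slco1a4 has 615 and 626 counts in the mineral oil and room-temperature xylene wells of 10 nuclei, and 1 count in the 3 frozen wells together.

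Slco1a4 had the largest contrast by pooled level. Its counting interval, given below, overlapped those of Flt1 (19.2 to 182) and Itm2a (9.23 to 280), so that the first rank could not be told. Slco1a4 gave 1, 0 and 0 counts in the frozen wells of 100, 50 and 10 nuclei. With heated xylene it gave 42, 0 and 0, with room-temperature xylene 67, 0 and 626, and with mineral oil 54, 0 and 615. The 5 FFPE wells with counts lay above every frozen well, and the other 4 were at 0. Pooled over wells the FFPE level was 404.6 times the frozen one, with a counting interval of 72.5 to 15993 because the frozen arm holds 1 count. Its log2 difference of 7.34 did not pass edgeR's quasi-likelihood test (adjusted p = 0.0957), and it passed with the nuclei number as a covariate (7.49, edgeR adjusted p = 0.0344, 4.72% of genes called). Without the heated xylene well of 100 nuclei the difference was 5.16 (edgeR adjusted p = 1.00). It passed when the mineral oil well of 50 nuclei (edgeR adjusted p = 0.0382, 354 of 10111 genes called) or the unheated xylene well of 50 (edgeR adjusted p = 0.0359, 348 of 9819 genes called) was left out.

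The 2 receptors had few frozen counts. Flt1 gave 0, 0 and 4 in frozen wells, 16, 0 and 0 with heated xylene, 24, 0 and 626 with room-temperature xylene, and 16, 0 and 4 in mineral oil wells. Adgrl4 gave 1, 0 and 8 in frozen wells, 3, 27 and 0 with heated xylene, 22, 0 and 86 with room-temperature xylene, and 4, 1 and 213 in mineral oil wells. A single well of 10 nuclei thus carried most FFPE counts of each gene, a different well for the 2. Their log2 differences of 3.61 and 3.30 did not pass (edgeR adjusted p = 0.342 and 0.418), nor did that of Itm2a, 3.80 (edgeR adjusted p = 0.446).

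Counts of the junction and surface genes in frozen wells came almost wholly from 1 well. Cldn5 gave 1, 0 and 43 counts in frozen wells, 0 in all heated xylene wells, 4, 0 and 11 with room-temperature xylene and 3, 0 and 88 in mineral oil wells. Pecam1 gave 0, 0 and 50 in frozen, 0, 3 and 0 with heated xylene, 11, 23 and 8 with room-temperature xylene and 10, 27 and 0 in mineral oil wells. Ly6c1 gave 0, 0 and 80 in frozen, 6, 0 and 0 with heated xylene, 21, 0 and 26 with room-temperature xylene and 7, 0 and 92 in mineral oil wells. In all 3 genes the frozen well of 10 nuclei held all but at most 1 of the frozen counts. The log2 differences were -2.05 for Cldn5, -1.29 for Pecam1 and -1.04 for Ly6c1 (edgeR adjusted p = 0.531, 0.788 and 0.854). Without that well they turned to 1.68, 5.49 and 6.39.

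Mecom gave 1, 0 and 60 counts in frozen wells, and among FFPE wells its highest value was 97, in the room-temperature xylene well of 10 nuclei. Its log2 difference was -0.24 (edgeR adjusted p = 0.969), and its sign turned with the nuclei number as a covariate (0.51) and without the frozen well of 10 nuclei (3.93). Nostrin, with 11 frozen counts and 105 in the room-temperature xylene well of 10 nuclei, did not pass the filter on low counts. In all, 8 of 9 genes were tested between FFPE and frozen wells, 0 were called, and 4.09% of 9092 genes were (1.45% higher and 2.64% lower in FFPE). DESeq2's Wald test also called 0 of the 8, and over all genes it called 339 higher and 302 lower, where edgeR called 132 and 240. The median log2 difference of the 8 in edgeR was 1.53, beside -0.13 over all genes. With 1 well left out, the 8 genes tested had a median of 0.43 without the heated xylene well of 100 nuclei, 5.24 without the frozen well of 10 and 0.84 without the unheated xylene well of 10. In other such fits a ninth gene, Nostrin, also passed the filter, so that the well and the gene set changed together: the median of the 9 was -0.25 without the mineral oil well of 10 nuclei, 0.94 without that of 50, and 0.40 and 0.44 without the frozen wells of 100 and of 50. Between methods 7 were tested and 0 called, as were 0% of 8372 genes. At an unadjusted p under 0.05 edgeR gave 314 genes for mineral oil against heated xylene, 199 for heated against room-temperature xylene and 379 for mineral oil against room-temperature xylene, and DESeq2's adjusted p called 20, 1 and 26 genes, none of the 9.

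With no filter on low counts some of these genes were called. Between FFPE and frozen wells it was Slco1a4 (edgeR adjusted p = 2.87e-08), with 2.94% of all genes called. Slco1a4 was higher with mineral oil than with heated xylene (log2 difference 4.52, edgeR adjusted p = 0.000257, 0.117% of genes called). With heated against room-temperature xylene, Flt1 (-5.86, edgeR adjusted p = 0.00905) and Slco1a4 (-4.57, edgeR adjusted p = 0.00160) were lower, where 0.0307% of genes were called. Flt1 was also lower with mineral oil than with room-temperature xylene (-5.41, edgeR adjusted p = 0.0108, 0.0982% of genes called). The wells of 10 nuclei carry these contrasts: 626 counts of Flt1 and 626 and 615 of Slco1a4 came from single wells.

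In the pathway lists, 3 genes beside the 9 were abundant enough to be tested in SCRB-seq, and all 3 were called between FFPE and frozen wells, where 58.0% of all tested genes were. Tek, the angiopoietin receptor, had pooled levels of 912 to 4089 CPM in the 6 FFPE pools and of 163 and 377 CPM in the frozen pools, and rose by 2.99 on the log2 scale (SE 0.34, edgeR adjusted p = 4.26e-12). In SMART-Seq2 it stood at 0 to 32.5 CPM in 8 of 9 FFPE wells, at 174 CPM in the mineral oil well of 10 nuclei, and at 15.7 to 32.1 CPM in frozen wells, where the groups overlapped. Ly6e fell by 2.06 (SE 0.35, edgeR adjusted p = 6.28e-07), with 0 counts in the mineral oil wells of 10 nuclei. Tjp1 fell by 1.00 (SE 0.31, edgeR adjusted p = 0.00429), but did not pass in the wells of 10 nuclei alone (log2 difference -1.03, edgeR adjusted p = 0.0839), and with DESeq2 size factors the difference was -1.59. With wells summed per pool none of the 3 passed (edgeR adjusted p = 0.0858, 0.235 and 0.289). In SMART-Seq2, 0 of the genes of the pathway lists were called between FFPE and frozen wells, where 4.09% of 9092 genes were. Without the 9 genes, those tested were 9 tight junction, 11 transport, 5 VEGF and angiopoietin, 5 adhesion and surface and 4 transcription factor genes. No nitric oxide gene was tested.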

How the data were processed

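Every table used holds deposited counts: per the file headers, reads or tags per gene for wells and plate nuclei, and UMIs per gene for droplet nuclei, none normalized. The builds named are hg19 and mm10, per the submitters' processing notes; the aligner, the counter and any UMI collapse of the SCRB-seq tags: not given in the sources used here. Human genes of the SCRB-seq table stayed out of mouse library sizes. The members and lists were chosen with earlier results of these data known.

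CPM is a gene's count scaled to 1000000 mouse counts of the well, nucleus or group. Bulk wells were compared by edgeR 4.0.16 (R 4.3.3; TMM, filterByExpr, quasi-likelihood test, Benjamini-Hochberg adjusted p under 0.05) over all genes. All 9 members are named; of the pathway lists, called genes and the 8 with the most class UMIs; and the 8 genes most alike over the classes. Cell types are the authors' annotation, and no doublet caller was run. Exact Poisson and binomial 95% intervals came from scipy 1.17.1. The fits and the copy search were tested on simulated data. Alternatives were DESeq2 1.42.0 (Wald test, size factors), no filter, nuclei number, single wells left out, thinning and higher detection limits; summed pools and near-identical columns were added after seeing the data. The batch 3 table holds 0 nuclei.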

Additional observations from a re-analysis of the deposited data

Results flagged for a closer look

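In 14 cases a single SCRB-seq well stood far above the other 7 of its pool by Dixon's criterion. Genes were looked at in 30 combinations of gene and pool with at least 20 counts, beside the 8 summed levels, and the criterion marks about 1 in 20 groups by chance for normally distributed values. Sparse counts in wells of unequal depth are not normally distributed, and the chance rate for them was not measured.

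In room-temperature xylene wells of 10 nuclei these were Adgrl4 at 478 CPM (next well 128), Flt1 at 534 CPM (next 174) and Mecom at 375 CPM (next 73.0), the last 2 in the same well. In room-temperature xylene wells of 100 nuclei, 1 well had Flt1 at 400.0 CPM (next 93.5), Itm2a at 231 CPM (next 35.0) and a summed level of 1077 CPM (next 418). In frozen wells of 10 nuclei, 1 well had Flt1 at 811 CPM (next 292) and Nostrin at 595 CPM (next 186), and in frozen wells of 100 nuclei 1 well had a summed level of 481 CPM (next 301). Heated xylene wells gave Ly6c1 at 691 CPM (next 224) with 10 nuclei, and Nostrin at 76.1 CPM (next 37.4) and Slco1a4 at 266 CPM (next 17.7) with 100 nuclei. Mineral oil wells of 100 nuclei gave Itm2a at 146 CPM (next 47.9) and Ly6c1 at 239.7 CPM (next 113).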

How the results depend on the processing

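Of the values that answer a comparison, 79 kept their side or size under an alternative and 18 moved. The 79 include counts of called members from SCRB-seq fits in which 0 members were tested, where agreement was fixed in advance. Those fits used DESeq2 size factors, DESeq2's Wald test, the nuclei number as a covariate, or wells of 100 or 10 nuclei alone. In them, as in the main fit, a count of 0 could not change. Of the values of single genes, 220 stayed, 48 moved, 7 reversed, 4 lost a call and 4 gained one. These values cover FFPE against frozen wells, for members tested and pathway genes called in the main fits, and the shares of plate and droplet nuclei. Calls between methods, and of genes tested only without the filter, are not among them. With no filter on low counts, called members numbered 1, 3, 2 and 3 in SCRB-seq (mineral oil against heated xylene, heated against room-temperature xylene, mineral oil against room-temperature xylene, FFPE against frozen) and 1, 2, 1 and 1 in SMART-Seq2, against 0 in each with the filter. The nuclei number as a covariate gave 1 between FFPE and frozen SMART-Seq2 wells, and leaving out single wells gave 0 to 1. Leaving out single wells, the SMART-Seq2 log2 difference between FFPE and frozen ranged from -1.05 to 3.93 for Mecom, from -2.29 to 6.39 for Ly6c1, from -3.51 to 1.68 for Cldn5 and from -2.21 to 5.49 for Pecam1, each turned by the frozen well of 10 nuclei; Mecom also turned, to 0.02, when the unheated xylene well of 100 was left out. With the covariate Mecom turned to 0.51 and Ly6c1 to 0.15. With DESeq2 size factors Tek rose by 2.25 in SCRB-seq. Shares of plate nuclei with at least 3 members were 6.67% (FFPE) and 14.2% (frozen) thinned, and 9.09% (FFPE) and 26.3% (frozen) at 5 counts. For frozen nuclei the share was 30.4% with copies at r of 0.7 counted once. Shares of droplet nuclei with at least 2 members were, for the Endothelial class, 2.30% at 2 UMIs, and for the others 0.120% thinned and 0% at 2 UMIs. No paired analysis was possible because the labels give no replicate number that groups share; the nuclei number, which the SMART-Seq2 groups do share, is the covariate above. The cause of these shifts was not tested.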

Other observations

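The SCRB-seq table also counts human genes. Human MECOM had 13 counts in 11 of 48 FFPE wells and 0 in 16 frozen wells, among 400070 and 22589 human counts, so that at the frozen depth a count of 0 does not show a difference. NOSTRIN had 1 and 0.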
